A study of Mus musculus with 10 samples.

Results

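Lysosomes are the acidic compartments in which phagocytes break down what they take up. Soluble proteases, glycosidases and lipid hydrolases do the cutting, a proton-pumping ATPase keeps the lumen acidic, and heavily glycosylated membrane proteins line it. The transcription factors TFEB and TFE3 switch on many of these genes through an E-box element near their starts. In monocytes and macrophages the same proteases also trim proteins for antigen presentation.

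The 41 genes described here are a fixed list of 11 proteases, 2 precursor proteins, 8 glycosidases, 6 lipid enzymes or transporters, 8 membrane proteins, 4 genes of the proton pump and 2 transcription factors. They were found by symbol among the 52636 genes of the count table, and all 41 were abundant enough to be tested with the 13469 genes that passed the filter on low counts. The samples were nonclassical monocytes, the patrolling monocyte subset, sorted from mouse bone marrow at a stated purity of 98%, with 5000 to 10000 cells per sample. The 5 WT libraries came from LAIR1+/+ animals and the 5 LAIR1KO libraries from LAIR1-/- animals, with no treatment. Lair1 encodes a collagen-binding receptor that dampens activation of immune cells. The labels state neither how the allele was made nor the age, sex or strain of the animals.

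Total counts ran from 12106209 to 15356924 per library. Lair1, the targeted gene, held 4230 to 5579 counts in the WT libraries and 0 to 10 in the LAIR1KO libraries, so every library matched its label. The defining markers of the sorted cells were present in both groups: the 16 identity genes, Nr4a1 and Cx3cr1 among them, summed to 18974 to 22435 CPM (library-scaled counts, with TMM factors) in WT and to 14323 to 20508 CPM in LAIR1KO. Of these 16 genes 0 were higher and 0 lower past the threshold.

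The stretches of promoter that carry the E-box are shown first, because this element is what many of the lysosome genes share in sequence. RefSeq windows on GRCm38.p6, from 250 bases before to 50 bases after each transcript start, were at hand for 35 of the 41 genes, in 42 windows. The core CACGTG, which reads the same on both strands, was present in 13 of the 42 windows (31%) and in 7.15% of all 32851 windows of the same length. The longer form TCACGTGA, which contains the core, was present in 7 of the 42 (16.7%) and in 0.974% of all windows. The full CLEAR palindrome, which is longer by a base on each side and contains both, was in 1 window of the list, that of Cln3, and in 0.326% of all. Below, capitals mark the core, or the longer form where it is complete, on the strand of the gene.
Ctsa, chr2:164833730-164833792, plus strand: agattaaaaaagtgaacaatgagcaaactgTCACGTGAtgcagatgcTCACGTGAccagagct
Ctsd, chr7:142387889-142387956, minus strand: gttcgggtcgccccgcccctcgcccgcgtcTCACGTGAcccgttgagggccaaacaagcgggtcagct
Gla, chrX:134601193-134601255, minus strand: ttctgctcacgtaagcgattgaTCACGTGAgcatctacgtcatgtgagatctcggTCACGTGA
Mcoln1, chr8:3500443-3500510, plus strand: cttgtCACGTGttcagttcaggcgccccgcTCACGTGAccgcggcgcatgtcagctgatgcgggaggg
Cln3, chr7:126583321-126583388, minus strand: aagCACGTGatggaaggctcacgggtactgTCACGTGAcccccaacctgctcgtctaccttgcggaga
Atp6v0d1, chr8:105566045-105566098, minus strand: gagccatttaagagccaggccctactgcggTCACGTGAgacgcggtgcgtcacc
Atp6v1a, chr16:44139354-44139421, minus strand: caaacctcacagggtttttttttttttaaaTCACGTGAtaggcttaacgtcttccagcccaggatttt
Lamp1, chr8:13159086-13159160, plus strand: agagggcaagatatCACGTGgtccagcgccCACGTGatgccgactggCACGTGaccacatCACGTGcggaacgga
Lgmn, chr12:102439106-102439171, minus strand: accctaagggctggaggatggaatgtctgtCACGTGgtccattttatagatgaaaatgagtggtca
Glb1, chr9:114401000-114401065, plus strand: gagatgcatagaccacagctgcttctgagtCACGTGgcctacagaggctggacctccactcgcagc

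Lamp1, a main glycoprotein of the lysosomal membrane, had 4 cores in the last 61 bases before its start. Lgmn and Glb1 are shown because they are the 2 genes with a core in their window that passed the test described below, one lower and the other higher. Their cores began 49 and 48 bases before a start, and in Lgmn this was the start of the second RefSeq window. The matches shown for Ctsa and Cln3 also lay in the second window of those genes. The 13 genes with a core had a median log2 fold change of -0.21 with 9 below 0, and the 22 genes whose windows lacked it had a median of -0.30 with 20 below 0. Ctsa, Ctsd, Gla, Lamp1, Mcoln1 and the other E-box genes outside Lgmn and Glb1 did not pass the threshold.

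**Figure D1:**
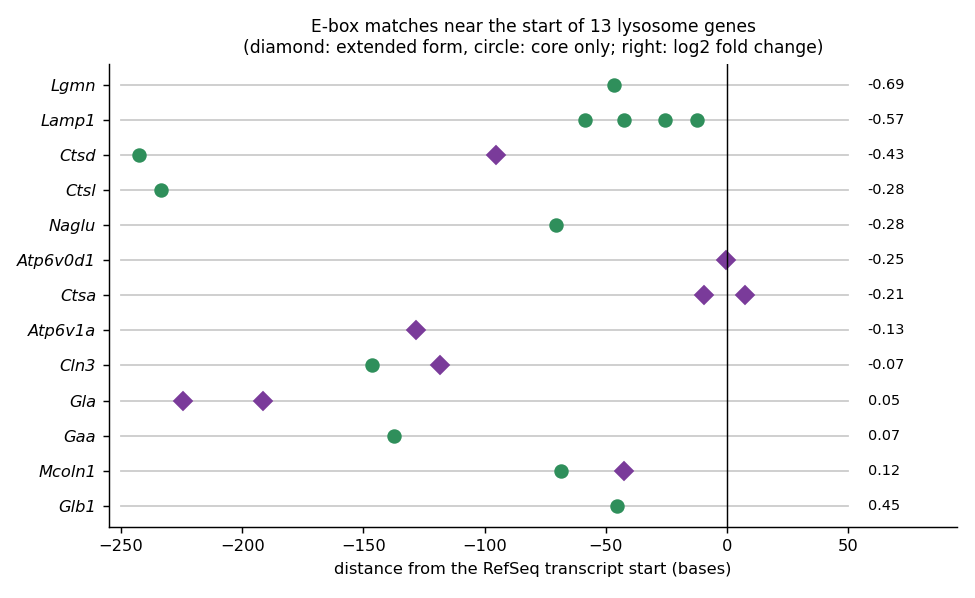
Position of each E-box match, in bases from the RefSeq transcript start, in the 13 lysosome genes whose window holds one, ordered by log2 fold change (LAIR1KO minus WT, at the right). Lgmn (-0.69) and Glb1 (0.45) stand at opposite ends of the order with a single core at a similar distance from the start.

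Loss of LAIR1 was the single difference between the groups that the labels name. Most lysosome genes stood a little lower in LAIR1KO, and few passed the test singly. Of the 41 genes 6 fell, namely Lgmn, Ctsc, Ctss, Grn, Npc2 and Atp6v0d2, and 1 rose, Glb1 (edgeR quasi-likelihood test, Benjamini-Hochberg adjusted p under 0.05 over all 13469 genes). This is 17.1% of the list, where 6.79% of all tested genes were called. In the lower direction it is 14.6% against 1.68% of all genes, and in the higher direction 2.44% against 5.11%. The log2 fold change was below 0 for 35 of the 41 genes (85.4%) and for 50.3% of all genes. Its median was -0.28 over the list and -0.0018 over all genes. For 8 of the 41 genes (19.5%) all LAIR1KO libraries lay on one side of all WT libraries, as for 7.66% of all tested genes. Of these 7 were lower, where all genes gave 2.06%, and 1 was higher, where all genes gave 5.61%.

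The fold changes moved with the scaling, in the list and over all genes. With libraries scaled by their totals the median of all genes moved to 0.13 and that of the list to -0.15. The list stayed about as far below all genes as with TMM, with 1 member called higher and 5 lower. Higher genes made up 75.3% of all calls with TMM, 90.1% with library totals and 62.6% with the GC and length trend of each library removed. In bulk libraries fewer cells of a type and less RNA per cell cannot be told apart, which applies to every difference below.

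**Figure D2:**
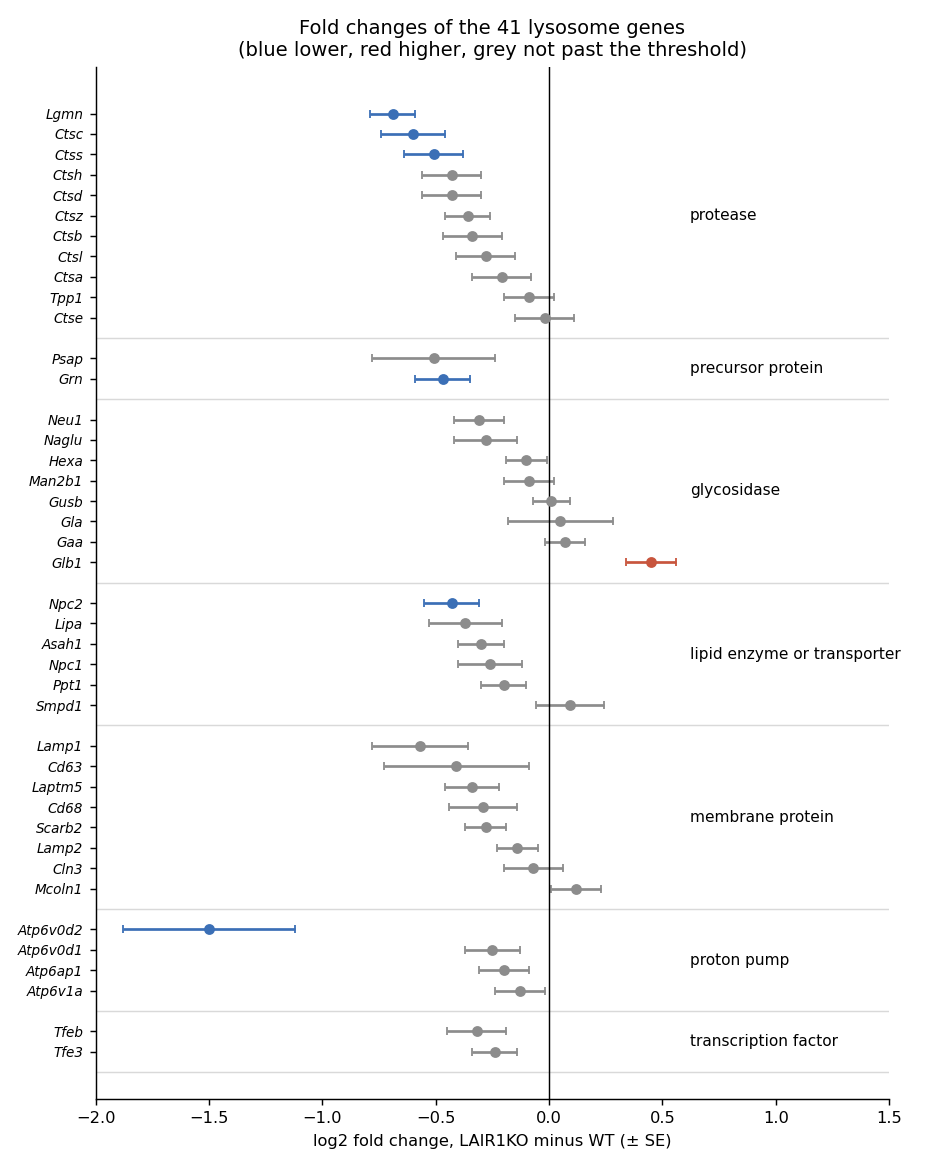
Log2 fold change (LAIR1KO minus WT, horizontal axis, bars are ± SE) of the 41 lysosome genes, grouped by role. All 11 proteases lie below 0, the 8 glycosidases lie on both sides of it, and Atp6v0d2 at -1.50 lies farthest from it.

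Among the proteases 3 of 11 fell and 0 rose, and all 11 fold changes were below 0 (median -0.36). Lgmn encodes legumain, the protease that cuts after asparagine and helps to mature other lysosomal proteases (ENSMUSG00000021190, GRCm38 chromosome 12, 102394084 to 102439813, minus strand). It stood at 437, 410, 430, 329 and 404 CPM in WT replicates 1 to 5 and at 289, 222, 265, 227 and 241 CPM in LAIR1KO replicates 1 to 5. Every LAIR1KO library lay below every WT library, and WT replicate 4 was the lowest of its group. Means moved from 402 ± 43.1 to 249 ± 27.8 CPM (SD, n = 5), a log2 fold change of -0.69 ± 0.10 (SE; edgeR adjusted p = 0.00201). Legumain was the only one of the 7 called genes that passed in all 23 alternative settings. Its log2 fold change ranged from -0.76 to -0.66 when single libraries were left out.

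Ctss encodes cathepsin S, the cysteine protease that degrades the invariant chain of MHC class II (ENSMUSG00000038642, chromosome 3, 95526786 to 95556403, plus strand). Its WT libraries held 4320, 4144, 4168, 4065 and 4003 CPM, and its LAIR1KO libraries held 3279, 2694, 3801, 2507 and 2236 CPM. The groups did not overlap, the WT values were tight, and LAIR1KO replicate 3 came closest to WT. Means moved from 4140 ± 120 to 2904 ± 631 CPM (SD, n = 5), with a fold change on the log2 scale of -0.51 ± 0.13 (SE; edgeR adjusted p = 0.0320). The call was lost when LAIR1KO replicate 2, 4 or 5 or any 1 of the 5 WT replicates was left out, with log2 fold changes of -0.63 to -0.44 over all single omissions and adjusted p up to 0.0834.

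Ctsc encodes cathepsin C, the dipeptidyl peptidase that activates the serine proteases of myeloid granules (ENSMUSG00000030560, chromosome 7, 88278085 to 88310888, plus strand). It stood at 844, 671, 812, 883 and 592 CPM in WT and at 527, 418, 659, 433 and 474 CPM in LAIR1KO. WT replicate 5 and LAIR1KO replicate 3 overlapped. The mean went from 760 ± 123 to 502 ± 97.2 CPM (SD, n = 5), with a fold change on the log2 scale of -0.60 ± 0.14 (SE; edgeR adjusted p = 0.0252). The call did not hold without LAIR1KO replicate 2, 4 or 5 or without WT replicate 1, 3 or 4 (log2 fold changes -0.72 to -0.54 over single omissions, adjusted p up to 0.0695). The granule serine proteases that cathepsin C activates, which were among the progenitor markers and not among the 41 genes, rose: Elane from 87.5 to 286 CPM, Prtn3 from 50.9 to 199 CPM and Ctsg from 44.3 to 240 CPM (edgeR adjusted p = 0.00214, 6.61e-04 and 4.06e-04).

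The windows of Ctsc and Ctss lacked the E-box and held a match to GAGGAAGT, the purine-rich form bound by the myeloid factor PU.1, read here on the opposite strand as ACTTCCTC. It began 151 bases before the start in Ctsc and 2 bases before it in Ctss. This motif was in 4 of the 42 windows of the list (9.52%), the others being those of Gla and Gusb, and in 3.2% of all windows. Gla and Gusb had log2 fold changes of 0.05 and 0.01 and did not pass. Whether the motif bears on the fold changes was not tested. The stretches of Ctsc and Ctss are shown because both genes passed the threshold.
Ctsc, chr7:88277904-88277971, plus strand: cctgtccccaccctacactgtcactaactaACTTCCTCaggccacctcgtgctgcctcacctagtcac
Ctss, chr3:95526754-95526805, plus strand: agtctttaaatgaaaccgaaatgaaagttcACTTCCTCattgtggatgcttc

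The other 8 proteases did not pass. Ctsz, the carboxypeptidase cathepsin X, came nearest, at 801, 723, 784, 871 and 747 CPM in WT and 650, 646, 706, 528 and 532 CPM in LAIR1KO (log2 fold change -0.36 ± 0.10, SE; edgeR adjusted p = 0.0512). The WT and LAIR1KO values were fully separate, and leaving out LAIR1KO replicate 3 brought it past the threshold (adjusted p = 0.0203). With all libraries it also passed with DESeq2, RLE scaling, a filter of 1 CPM in 5 libraries and limma voom with or without library quality weights. The aminopeptidase gene Ctsh (-0.43, adjusted p = 0.0586) and the aspartic protease gene Ctsd (-0.43, adjusted p = 0.0690) followed, and both passed without LAIR1KO replicate 3 (adjusted p = 0.0144 and 0.0107 by edgeR). With all libraries both also passed with DESeq2 and with limma voom with library quality weights. Ctsh passed further with RLE scaling, with limma voom and with the GC and length trend removed, and Ctsd without WT replicate 4.

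Ctsb, a cysteine protease gene and the one with the most counts of the list, was at 5221 to 5711 CPM in WT and at 4563, 3841, 5743, 3666 and 3298 CPM in LAIR1KO. LAIR1KO replicate 3 lay above every WT library and the other LAIR1KO libraries below every one of them (log2 fold change -0.34 ± 0.13, SE; edgeR adjusted p = 0.151; with that replicate left out, 0.00831). Ctsa, the serine carboxypeptidase that protects other hydrolases, had a log2 fold change of -0.21, Ctsl one of -0.28, the tripeptidyl peptidase gene Tpp1 one of -0.09 and the aspartic protease gene Ctse one of -0.02. Exons of Ctsa shared 10.5% of their bases with Pltp on the opposite strand, and Pltp itself fell (log2 fold change -0.71, edgeR adjusted p = 0.00536). Those of Ctsd shared 34.4% with Gm49369 on the same strand, a gene with a mean of 0 counts. The effect of this overlap on the Ctsd counts was not tested.

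**Figure D3:**
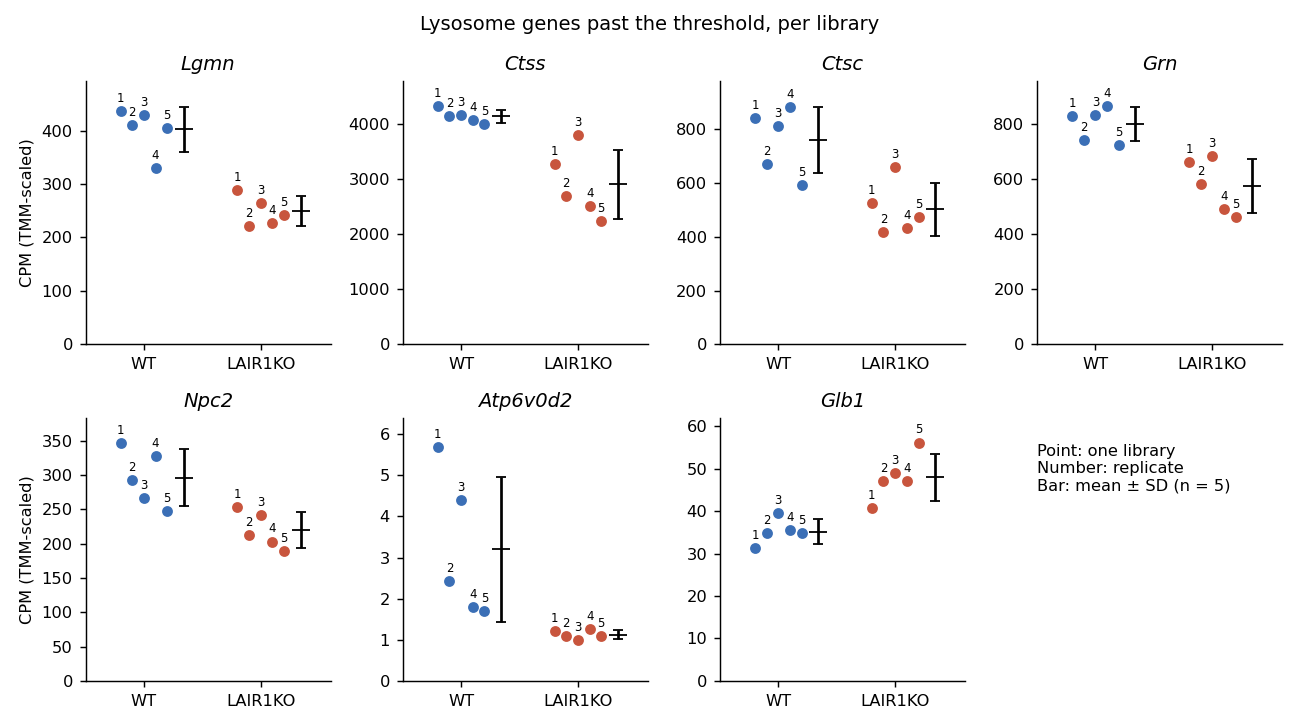
TMM-scaled CPM (vertical axes, from 0) of the 7 lysosome genes past the threshold, with 1 point per library, its replicate number and the mean ± SD of each group of 5. The LAIR1KO points of Lgmn lie together at 222 to 289 CPM, while those of Ctss spread from 2236 to 3801 CPM.

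Both precursor proteins had lower means in LAIR1KO, and 1 of them passed. Grn encodes progranulin, which is cut into granulins in the lysosome (ENSMUSG00000034708, chromosome 11, 102430315 to 102437048, plus strand). It was at 830, 743, 831, 865 and 724 CPM in WT and at 661, 581, 682, 490 and 461 CPM in LAIR1KO. The groups did not overlap, and LAIR1KO replicates 4 and 5 were the lowest. The mean went from 799 ± 61.5 to 575 ± 98.8 CPM (SD, n = 5), with a fold change on the log2 scale of -0.47 ± 0.12 (SE; edgeR adjusted p = 0.0295). Without LAIR1KO replicate 2, 4 or 5 or WT replicate 1, 3 or 4 it did not pass (log2 fold changes -0.54 to -0.41 over single omissions, adjusted p up to 0.0786).

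Psap encodes prosaposin, the source of the saposins that sphingolipid hydrolases need. It stood at 4207, 3796, 3603, 4981 and 4745 CPM in WT and at 3747, 3691, 4451, 1310 and 1811 CPM in LAIR1KO. LAIR1KO replicates 1 to 3 lay within the WT range and replicates 4 and 5 far below it. The fold change did not pass (log2 fold change -0.51 ± 0.27, SE; edgeR adjusted p = 0.308), and it was -0.11 without LAIR1KO replicates 4 and 5. The within-group SD of Psap on the log2 scale was 0.77 in LAIR1KO and 0.20 in WT.

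The glycosidases, which remove sugars from glycoproteins, glycolipids and glycogen, did not share one direction. Of 8 genes 1 rose and 0 fell, 4 had fold changes below 0 and 4 above (median -0.04). Glb1 encodes acid beta-galactosidase (ENSMUSG00000045594, chromosome 9, 114401076 to 114474898, plus strand). It was at 31.3, 34.8, 39.5, 35.5 and 34.9 CPM in WT and at 40.7, 47.1, 48.9, 47.1 and 56.2 CPM in LAIR1KO. Every LAIR1KO library lay above every WT library, with LAIR1KO replicate 5 the highest. The mean went from 35.2 ± 2.92 to 48 ± 5.52 CPM (SD, n = 5), with a fold change on the log2 scale of 0.45 ± 0.11 (SE; edgeR adjusted p = 0.0306).

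The Glb1 call did not hold without LAIR1KO replicate 2, 4 or 5 or without WT replicate 1, 2, 4 or 5 (log2 fold changes 0.38 to 0.49 over single omissions, adjusted p up to 0.0799). It was also lost with the GC and length trend removed (adjusted p = 0.0682 by edgeR) and with no filter (0.0641). Exons of Glb1 shared 5.49% of their bases with Tmppe on the same strand, a gene of similar count, so reads there could be split. Tmppe itself averaged 43.2 ± 6.20 CPM in WT libraries and 44.7 ± 9.17 CPM in those of LAIR1KO (SD, n = 5). The other 7 glycosidases had log2 fold changes from -0.31 for the sialidase gene Neu1 (edgeR adjusted p = 0.107) to 0.07 for the acid alpha-glucosidase gene Gaa (0.723). Gusb, the beta-glucuronidase gene, averaged 401 ± 19.2 CPM in WT and 404 ± 33.4 CPM in the LAIR1KO libraries, and Man2b1, the alpha-mannosidase gene, at 1081 ± 67.5 and 1016 ± 158 CPM. Hexa, a beta-hexosaminidase gene and the most abundant glycosidase gene per kb, stood at 425, 420, 434, 459 and 401 CPM in WT and 433, 379, 464, 348 and 374 CPM in LAIR1KO, with overlapping groups (edgeR adjusted p = 0.590). Naglu and Gla did not pass either.

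Of the 6 lipid enzymes and transporters 1 fell, Npc2, the soluble protein that hands cholesterol to NPC1 for export (ENSMUSG00000021242, chromosome 12, 84754562 to 84773152, minus strand). It was at 347, 292, 267, 327 and 248 CPM in WT and at 253, 212, 241, 203 and 189 CPM in LAIR1KO. Only LAIR1KO replicate 1 reached into the WT range, just above WT replicate 5. The mean went from 296 ± 40.7 to 220 ± 26.8 CPM (SD, n = 5), with a fold change on the log2 scale of -0.43 ± 0.12 (SE; edgeR adjusted p = 0.0406).

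Npc2 lost its call without LAIR1KO replicate 2, 4 or 5 and without WT replicate 1, 2, 3 or 4 (log2 fold changes -0.49 to -0.37 over single omissions, adjusted p up to 0.102), with library totals (adjusted p = 0.0831), with no filter (0.0530) and with upper-quartile scaling (0.0501). Its partner Npc1 averaged 44.4 ± 3.85 CPM in WT libraries and 36.9 ± 6.58 CPM in LAIR1KO libraries and did not pass (edgeR adjusted p = 0.288). Asah1, the acid ceramidase gene and the most abundant lipid gene per kb, was at 592, 518, 477, 499 and 526 CPM in WT and 439, 441, 498, 387 and 352 CPM in LAIR1KO. Asah1 (-0.30, adjusted p = 0.105) and the acid lipase gene Lipa (-0.37, adjusted p = 0.209) passed without LAIR1KO replicate 3 (0.0371 and 0.0364 by edgeR). Ppt1, which removes palmitate from proteins, had a log2 fold change of -0.20, and Smpd1, the acid sphingomyelinase gene, one of 0.09.

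None of the 8 membrane proteins passed (edgeR; 0 higher and 0 lower), and 7 had fold changes below 0 (median -0.28). Laptm5, a lysosomal membrane protein of blood cells, was at 4086, 3809, 4228, 3992 and 4034 CPM in WT and at 3397, 3129, 4083, 2773 and 2568 CPM in LAIR1KO (log2 fold change -0.34 ± 0.12, SE; edgeR adjusted p = 0.111; with LAIR1KO replicate 3 left out, 0.0103). Scarb2, the receptor that carries glucocerebrosidase to lysosomes, was at 146, 152, 158, 155 and 142 CPM in WT and at 137, 123, 140, 113 and 108 CPM in LAIR1KO. Its groups did not overlap, yet the log2 fold change of -0.28 ± 0.09 did not pass (adjusted p = 0.0987).

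Lamp1, the gene with 4 E-box cores, varied widely within the groups. It stood at 523, 766, 1238, 881 and 791 CPM in WT and at 702, 494, 423, 468 and 741 CPM in LAIR1KO (log2 fold change -0.57 ± 0.21, SE; edgeR adjusted p = 0.135). Its relative Lamp2 was steadier, at 494 to 560 CPM in WT and 424 to 582 CPM in LAIR1KO (-0.14, adjusted p = 0.437). Cd68, the macrophage glycoprotein, had a log2 fold change of -0.29, the tetraspanin gene Cd63 one of -0.41, the gene of the membrane protein Cln3 one of -0.07 and the calcium channel gene Mcoln1 one of 0.12.

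The proton pump genes were all below 0, and 1 of 4 fell. Atp6v0d2 encodes the d2 form of the pump's membrane sector, known from osteoclasts and macrophages (ENSMUSG00000028238, chromosome 4, 19876841 to 19922605, minus strand). It was the least abundant gene of the list per kb of exon. It stood at 5.69, 2.44, 4.39, 1.79 and 1.70 CPM in WT and at 1.21, 1.08, 0.995, 1.25 and 1.09 CPM in LAIR1KO, from 22 to 68 counts and 15 to 19 counts per library. The WT libraries spread widely and the LAIR1KO libraries lay close together below all of them (log2 fold change -1.50 ± 0.38, SE; edgeR adjusted p = 0.0320). The call was lost without any 1 of the 5 LAIR1KO replicates or without WT replicate 1 or 3 (log2 fold changes -1.66 to -1.20 over single omissions, adjusted p up to 0.0870), and with limma voom (0.0765, or 0.0839 with library quality weights). The common form Atp6v0d1 averaged 111 ± 12.7 CPM in WT libraries and 93.2 ± 14.2 CPM in LAIR1KO libraries (SD, n = 5; edgeR adjusted p = 0.242), and Atp6v1a did not pass. Atp6ap1, an accessory subunit gene and the most abundant of the 4 per kb, was at 940, 890, 919, 890 and 891 CPM in WT and 857, 811, 951, 696 and 629 CPM in LAIR1KO (adjusted p = 0.307), and LAIR1KO replicate 3 alone lay above all WT libraries.

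Neither transcription factor passed. Tfeb was at 140, 172, 187, 198 and 143 CPM in WT and at 153, 146, 149, 116 and 106 CPM in LAIR1KO, where replicates 4 and 5 were below every WT library (log2 fold change -0.32 ± 0.13, SE; edgeR adjusted p = 0.180). Tfe3 was at 111 to 130 CPM in WT and 87.5 to 110 CPM in LAIR1KO with no overlap (-0.24 ± 0.10, adjusted p = 0.158).

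The levels of the genes differed far more between genes than between the groups. Per kb of annotated exon, which counts every exon of every transcript and so understates genes with long alternative exons, Ctss was highest in WT at 3049 CPM per kb. Psap followed at 1555, Laptm5 at 1064, Cd68 at 1045 and Ctsb at 885 CPM per kb. At the other end stood Cd63 at 3.42, Gla at 2.21 and Atp6v0d2 at 1.18 CPM per kb. The 41 genes together took 3.08 ± 0.0495% of all counts in WT and 2.62 ± 0.421% in LAIR1KO (SD, n = 5), and Ctsb, Ctss, Psap and Laptm5 made up 55.1% and 52.3% of that.

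The LAIR1KO libraries differed among themselves in their lysosome genes. The median log2 ratio of the 41 genes to their WT mean was -0.19, -0.20, -0.06, -0.39 and -0.54 in LAIR1KO replicates 1 to 5, and between -0.09 and 0.06 in the WT libraries. Over all tested genes this median was between -0.02 and 0.0018 in every library. LAIR1KO replicate 3 was the highest LAIR1KO library for 28 of the 41 genes, LAIR1KO replicate 5 the lowest for 25, and both held for 20. In LAIR1KO replicate 5, 32 genes lay below every WT library and 1 above, whereas in LAIR1KO replicate 3 this was 13 below and 12 above. The median within-group SD on the log2 scale was 0.22 in LAIR1KO and 0.13 in WT for the list, and 0.27 and 0.25 for all tested genes.

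**Figure D4:**
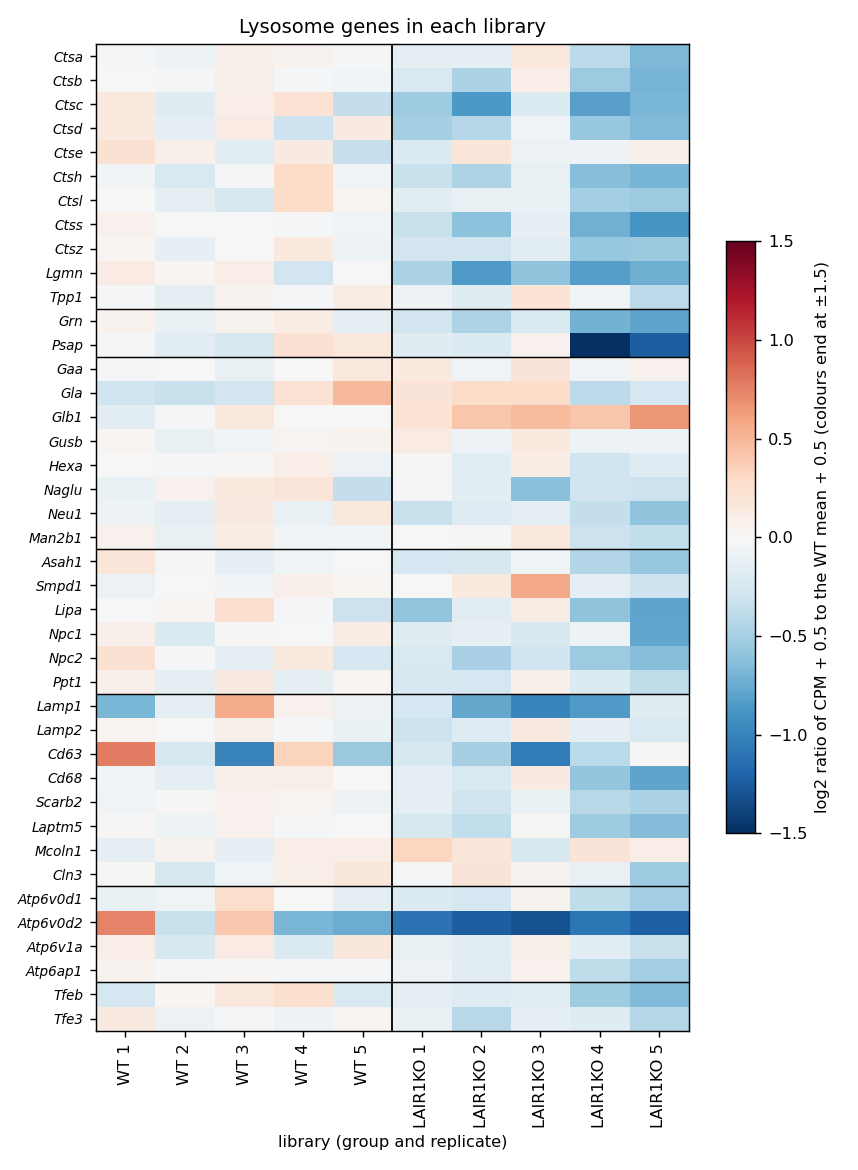
Log2 ratio of each lysosome gene (rows, by role) in each library (columns) to its WT mean, after adding 0.5 CPM to both, with blue for lower and red for higher. LAIR1KO replicates 4 and 5 are the bluest columns, and Psap is pale in LAIR1KO replicates 1 to 3 and darkest in replicate 4.

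Counts of calls depended on which libraries of either group were kept. Without LAIR1KO replicates 4 and 5 only Lgmn passed among the 41 genes (log2 fold change -0.64, edgeR adjusted p = 0.0191), where 2.67% of all tested genes were called, 1.68% higher and 0.996% lower, and the median of the list was -0.17. Without LAIR1KO replicate 3 the count was 12 lower and 1 higher, where calls over all genes also went from 914 to 1170 (8.56%) and lower calls from 226 to 381. Without WT replicates 1 and 4 only Lgmn passed as well (-0.74, adjusted p = 0.0117), where 2.4% of all genes were called, 1.89% higher and 0.511% lower. Leaving out LAIR1KO replicate 2, 4 or 5 or WT replicate 1 alone also left Lgmn as the only called gene of the list. In these fits 4.73%, 3.89%, 4.32% and 4.63% of all genes were called, against 6.79% with all libraries. Leaving out WT replicate 3 alone left Lgmn and Glb1, WT replicate 4 left 3 and WT replicate 2 left 4 of the 41 genes called. The shares of all genes called were then 4.28%, 5.29% and 4.7%.

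Markers of other cells differed as well. In LAIR1KO the sums of the progenitor, mitosis and nonclassical monocyte identity genes had their extremes in replicates 3 and 5, as the lysosome median did. Of 10 myeloid progenitor genes 9 rose and 0 fell, and none was at 0 in all libraries. Their summed level was 542 to 1428 CPM in WT and 3728, 3998, 3234, 5499 and 6872 CPM in LAIR1KO replicates 1 to 5, highest in the replicates with the lowest lysosome genes and lowest in replicate 3. All 8 mitosis genes rose, with sums of 187 to 270 CPM in WT and 392 to 732 CPM in LAIR1KO. Of 11 tested resident macrophage genes 7 fell and 0 rose, from sums of 1752 to 2260 CPM to sums of 957 to 1234 CPM. C1qb, a complement chain of macrophages, fell from 367 to 75.1 CPM. The macrophage genes did not share one order of the LAIR1KO libraries. C1qb was highest in LAIR1KO replicate 5 (97.1 CPM). The macrophage sum was highest in LAIR1KO replicate 3 (1234 CPM) and lowest in replicates 4 and 5 (957 and 970 CPM). Its largest part was Adgre1, at 590 to 905 CPM in LAIR1KO, which did not pass (edgeR adjusted p = 0.0947). The 16 nonclassical monocyte identity genes were all below 0 with a median log2 fold change of -0.26, close to the -0.28 of the lysosome genes. They summed to 17243, 15513, 20508, 15669 and 14323 CPM in LAIR1KO replicates 1 to 5, also highest in replicate 3 and lowest in replicate 5. The part of these cells in the lysosome differences was not tested.

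The remaining marker lists gave smaller counts. Over all tested genes 5.11% were called higher and 1.68% lower. Among 6 tested classical monocyte genes 2 rose, and among 7 dendritic cell genes 1 rose and 3 fell. The dendritic cell gene that rose, Flt3, is also counted among the progenitor genes above. Of 8 neutrophil genes and of 6 B cell genes 0 passed by edgeR. Of 6 erythroid genes 4 fell, with overlapping groups for each. Their sum was 1260 CPM in WT replicate 2, 77.5 to 315 CPM in the other WT libraries and 34.4 to 112 CPM in LAIR1KO. Of 3 tested platelet genes 1 fell, and of 4 tested eosinophil, basophil and mast cell genes 1 rose. The 1 tested T and NK cell gene, Nkg7, rose.

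**Figure D5:**
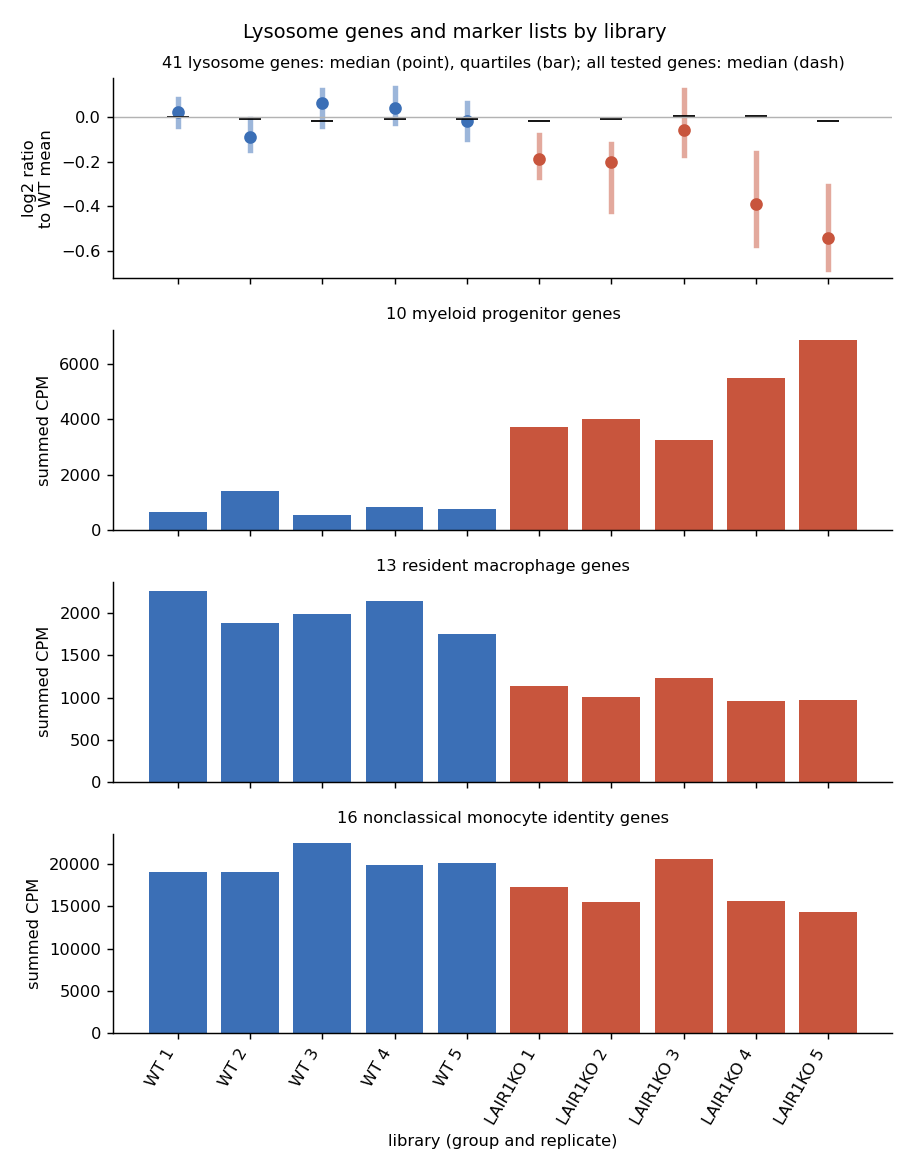
Per library, the median and quartiles of the log2 ratio of the 41 lysosome genes to their WT mean (top), and the summed CPM of 10 myeloid progenitor, 13 resident macrophage and 16 nonclassical monocyte identity genes. The lysosome median is lowest in LAIR1KO replicates 4 and 5 (-0.39 and -0.54), where the progenitor sum is highest (5499 and 6872 CPM).

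Other lysosome genes and genes of related processes were followed in 7 further lists of 151 genes, of which 145 were tested. The related processes were protease inhibition, sorting, the TFEB family with nutrient sensing, and autophagy, so not all 151 encode lysosomal proteins. Of these 3 rose and 6 fell (6.21% called), and 71.7% had fold changes below 0, with a median of -0.16. These counts stand beside 6.79% called and 50.3% below 0 over all tested genes. In the lower direction 4.14% were called against 1.68% of all genes, and in the higher direction 2.07% against 5.11%. The 3 that rose were 2 protease inhibitors and 1 gene of the TFEB family list. Among 33 other hydrolases 3 fell (9.09%) and 0 rose. Acp5, the tartrate-resistant acid phosphatase gene, was at 179, 204, 214, 200 and 228 CPM in WT and at 132, 127, 142, 115 and 102 CPM in LAIR1KO, with no overlap (log2 fold change -0.73 ± 0.11, SE; edgeR adjusted p = 0.00167). Like Lgmn, it passed without any single library. Ctsk, the cathepsin of osteoclasts, held 35 to 75 counts per WT library and 1 to 31 per LAIR1KO library (-2.17, adjusted p = 0.0289), and Gm2a, the GM2 ganglioside activator gene, had a log2 fold change of -0.42 (adjusted p = 0.0476). Ctsk lost its call without LAIR1KO replicate 1, 4 or 5 or WT replicate 2 or 3 (adjusted p up to 0.0725), and Gm2a kept it among single omissions only without LAIR1KO replicate 3 (up to 0.119).

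Of 29 other membrane proteins 3 fell (10.3%, against 1.68% of all genes) and 0 rose. Slc15a3, a peptide and histidine transporter, was at 18.0, 16.5, 12.2, 19.0 and 20.4 CPM in WT and at 8.37, 9.95, 10.6, 7.63 and 9.20 CPM in LAIR1KO (log2 fold change -0.91 ± 0.17, SE; edgeR adjusted p = 0.00654). The groups did not overlap, and the call held without any single library but not without WT replicates 1 and 4 together. Exons of Slc15a3 overlapped Tmem132a on the opposite strand over 28.1% of their bases, a gene with a mean of 52 counts. Cln8 (-0.46, adjusted p = 0.0399) and Unc93b1, the chaperone of endosomal Toll-like receptors (-0.33, adjusted p = 0.0499), lost their calls in 6 and 9 of the 10 single omissions. Of 14 other proton pump subunits, 25 sorting genes and 18 autophagy genes 0 passed by edgeR, with the smallest adjusted p at 0.0759 for Atp6v0e, 0.123 for Arl8a and 0.0753 for Gabarap.

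Inhibitors of proteases were split. Of 5 tested genes 2 rose (40%, against 5.11% of all genes) and 0 fell. The other 3 had fold changes below 0, and the median was -0.43. Cst7 encodes cystatin F, a cystatin that enters lysosomes and inhibits cathepsin C. It was at 6.52, 11.3, 3.57, 7.66 and 10.1 CPM in WT and at 23.0, 31.3, 18.8, 36.9 and 38.8 CPM in LAIR1KO (log2 fold change 1.93 ± 0.29, SE; edgeR adjusted p = 0.00200). Serpinb1a, an inhibitor of neutrophil serine proteases, was at 21.7 to 52.8 CPM in WT and 59.5 to 108 CPM in LAIR1KO (1.39 ± 0.24, adjusted p = 0.00405). For both genes the groups did not overlap, LAIR1KO replicates 4 and 5 were highest and replicate 3 lowest of their group, and the call held without any single library. Cst3, the gene of secreted cystatin C, averaged 5154 CPM in WT libraries and 3738 CPM in LAIR1KO libraries and did not pass (-0.46, adjusted p = 0.181 by edgeR). Nor did Cstb, the gene of the cytosolic cathepsin inhibitor stefin B (-0.45, adjusted p = 0.0939), or Serpinb6a (-0.43, adjusted p = 0.176).

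Among 21 genes of the TFEB family and nutrient sensing 1 rose (4.76%, against 5.11% of all genes) and 0 fell. Tfec, a member of the same transcription factor family found in macrophages, held 26, 39, 10, 1 and 11 counts in WT and 148, 91, 131, 126 and 129 counts in LAIR1KO. All LAIR1KO libraries lay above all WT libraries, at 6.12 to 9.81 CPM against 0.0690 to 3.28 CPM (log2 fold change 2.63 ± 0.54, SE; edgeR adjusted p = 0.0115). The call held without any single library and was lost without LAIR1KO replicates 4 and 5 together. LAIR1KO replicate 3, at 8.69 CPM, lay among the other LAIR1KO libraries.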

How the data were processed

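Bulk RNA sequencing was measured in 10 libraries, 5 WT and 5 LAIR1KO. The authors deposited 1 table of raw read counts per Ensembl gene, with no normalization. The submitters' processing notes name GSNAP and the build GRCm38.p5. Counting tool, annotation release and strand setting are unstated, so reads of a gene and its antisense partner could not be told apart. Columns were matched to libraries through the identifiers in the titles, with 0 left over. GENCODE M21 (GRCm38) named 52489 of 52636 genes and gave exon lengths. Promoter sequences came from RefSeq on GRCm38.p6, by symbol.

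In R 4.3.3, genes were kept with filterByExpr (minimum count 10, minimum total 15), scaled by TMM and tested with edgeR 4.0.16 (glmQLFit, glmQLFTest, no covariate). P-values were adjusted by Benjamini-Hochberg over all 13469 genes, two-sided, with a threshold of 0.05. SE was the absolute log2 fold change over the square root of F. CPM use TMM-scaled library sizes. limma 3.58.1 and DESeq2 1.42.0 were alternatives, with other scalings, filters, a replicate block, an adjusted p under 0.1 and libraries left out. On simulated counts for LAIR1KO against WT with 13192 genes the test recovered 29.2%, 71.4% and 98.6% of genes changed 1.5-fold, 2-fold and 4-fold. Chi-square per degree of freedom between replicates was 14.4 to 71, so none was a repeat deposit. The labels do not tie libraries to animals, and p-values reflect only how much these libraries vary, which may be technical.

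The 41 genes, the further lists and the alternatives were chosen with earlier results of these data known. Named genes were Lair1, any of the 41, called members of the further lists (up to 4, or the 1 with the smallest p), and markers. Prtn3, Elane, Ctsg, C1qb, Adgre1, Flt3, Nkg7, Nr4a1, Cx3cr1, Pltp, Tmppe, Gm49369, Cst3, Cstb, Serpinb6a and Tmem132a were named after their values were seen.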

Additional observations from a re-analysis of the deposited data

Results flagged for a closer look

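Among the 82 groups of 5 libraries formed by 41 genes and 2 genotypes, 2 had a library far from its 4 companions by Dixon's test, which flags about 1 in 20 groups by chance. Ctsb in WT replicate 3, at 5711 CPM, lay above the other WT libraries. Npc1 in LAIR1KO replicate 5, at 25.6 CPM, lay below the other LAIR1KO libraries. The causes were not tested.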

How the results depend on the processing

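The fold change of Lgmn kept its direction and its call in all 23 alternatives, and the median of the 41 genes stayed below 0 in all of them, from -0.32 to -0.15. The number of members called was 7, and became 14 with DESeq2, 11 at an adjusted p under 0.1, 4 with the replicate block, 1 without LAIR1KO replicates 4 and 5 and 1 without WT replicates 1 and 4, and 1 to 13 with single libraries left out. Lower members were 13 with DESeq2, 10 at the looser threshold, 1 without either pair and 1 to 12 with single libraries left out. Those that DESeq2 added were Asah1, Ctsd, Ctsh, Ctsz, Laptm5, Neu1 and Scarb2. Higher members were 0 with the GC and length trend removed, with no filter, with the replicate block and without either pair, and 0 to 1 with single libraries left out. All genes called were 1516 with DESeq2, 1379 with library totals, 600 with the replicate block, 1474 at the looser threshold, 376 and 338 without the pairs of LAIR1KO and WT, and 535 to 1170 with single libraries left out. The called genes of the further lists were 21, 15, 19, 4 and 4 with DESeq2, the GC and length trend removed, the looser threshold and the 2 pairs left out, and 5 to 23 with single libraries. Same-numbered libraries did not pair (correlation of deviations -0.121 to 0.0644, and 0 of 5 WT libraries matched best with its own number), and the block lost Glb1, Npc2 and Atp6v0d2.

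Signs turned for 9 genes that passed in none of the alternatives, Cd63 (-0.41 in the report) with the largest fold change among them. With library totals Ctse was at 0.12, Tpp1 at 0.04, Hexa at 0.03, Man2b1 at 0.04 and Cln3 at 0.06. Without LAIR1KO replicates 4 and 5 Man2b1 was at 0.06 and Cln3 at 0.08, and without WT replicates 1 and 4 Ctse was at 0.12 and Cd63 at 0.18. With the GC and length trend removed Gla was at -0.04 and Gusb at -0.07, and with upper-quartile scaling Gusb was at -0.00092. Single omissions gave -0.09 to 0.04 for Ctse, -0.03 to 0.21 for Gla, -0.03 to 0.03 for Gusb, -0.07 to 0.17 for Smpd1 and -0.15 to 0.03 for Cln3. The causes were not tested. Depth limits Atp6v0d2 most, with 15 to 68 counts per library.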
